A study of Mus musculus with 4 samples.

Results

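K459 is a cell line grown from a mouse pancreatic tumour, and it was set here against TPC18645 and TCPA18654, the lines of the series whose profiles lie closest to each other. Per gene, the comparison is the log2 signal of K459 minus the mean of the other lines, so it holds 1 array against 2, and the gap between TPC18645 and TCPA18654 is the only measure of noise. It covered 3 of the 4 lines and 19938 genes. The genes described were chosen by this same difference, which reached 2-fold in 787 (3.95%), so their values are a description and no test was made. Cells were dissociated from pancreatic tumours, cultured in DMEM with serum and left untreated, and the total RNA of each line was hybridised to 1 Affymetrix Mouse Gene 1.0 ST array.

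According to the labels, TPC18645 is of the TPC genotype (Ela-TGFa, Ptg1a+/CRE, Trp53fl/fl), whereas K459 and TCPA18654 are of the TPAC genotype, which adds p65fl/fl, the conditional allele of Rela. In this model the elastase promoter drives the growth factor TGF-α in the pancreas, and Cre, which the study's methods call p48-Cre, removes p53 and, in TPAC, the NF-κB subunit p65 in pancreatic cells only. The genotype label therefore does not separate K459 from the pair: 1 of the lines it is compared with shares its label. The fourth line, TPC20223 of the TPC genotype, was left out because its cytokeratin 19 gene Krt19 had a log2 signal of 6.08, against 11.74 to 12.65 in the other lines, and its values are given only for orientation. The sources used here do not say whether the lines came from separate mice, and the age and sex of the mice are likewise not given. A difference between K459 and the pair can be a feature of this line, its tumour, its culture or its genotype, which cannot be told apart with 1 array.

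Pancreatic ductal adenocarcinoma cells carry features of ductal epithelium, among them keratins, claudins and mucins, and in culture they often co-express genes of mesenchymal cells. They can also switch on programmes of other gut epithelia, such as those of stomach, intestine and liver, organs that arise from the same endoderm as the pancreas. NF-κB and interferon signalling set the level of many cytokine, chemokine and antiviral genes in such cells.

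All 3 lines had bright signals of some epithelial markers, whereas others, such as Epcam and Cldn4, were low in the pair and are given further on. Krt8, a keratin of simple epithelium, had log2 signals of 13.33 in TPC18645, 13.44 in TCPA18654 and 13.72 in K459. Cdh1, the E-cadherin gene, had 12.57, 12.68 and 12.62. The mesenchymal filament gene Vim had 13.89, 13.83 and 13.79. K459 did not differ from the pair by more than 0.34 in Krt8, Cdh1 or Vim. Ptprc of leukocytes (5.61 in K459), Pecam1 and Cdh5 of endothelium (5.97 and 6.32), and the acinar factor Ptf1a (6.13) were dim in all 3 lines, meaning that no line exceeded a signal of 6.92, under which 40% of genes lie by their mean. The arrays carry no detection call, so differences that start or end near that level are compressed. Rela had 11.12 in TPC18645, 11.10 in TCPA18654 and 10.82 in K459, and Tgfa had 8.94, 8.90 and 9.07. Both signals summarise probes along the whole transcript and do not check the alleles.

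K459 stood further from the pair than its members stood from each other. The pair was taken as the closest lines, so this order was set by that choice and is no result. Of 19938 genes, 514 (2.58%) were at least 2-fold higher in K459 and 273 (1.37%) at least 2-fold lower, whereas 24 (0.12%) were higher and 30 (0.15%) lower in TCPA18654 than in TPC18645. The size of the K459 difference had a median of 0.15 on the log2 scale and reached 0.86 at the 95th percentile and 2.0 at the 99th. The gap between the pair had 0.12, 0.41 and 0.68 at the same points. Differences of at least 4-fold were found for 146 higher and 53 lower genes. K459 lay beyond each of the lines, not only beyond their mean, by at least 2-fold in 431 (2.16%) and 224 (1.12%) genes. Just inside and outside the threshold were Sned1 (1.0) and Dusp4 (0.995) among the higher genes, and Pde10a (-1.005) and Il18rap (-0.995) among the lower. The higher genes were often dim elsewhere: 206 of the 514 were dim in both other lines, and 90 of the 273 lower genes were dim in K459. Pearson's r over all transcript clusters was 0.995 within the pair, 0.981 between K459 and TPC18645 and 0.982 between K459 and TCPA18654. These correlations run across clusters that share the array design, and clusters are no replicates.

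**Figure D1:**
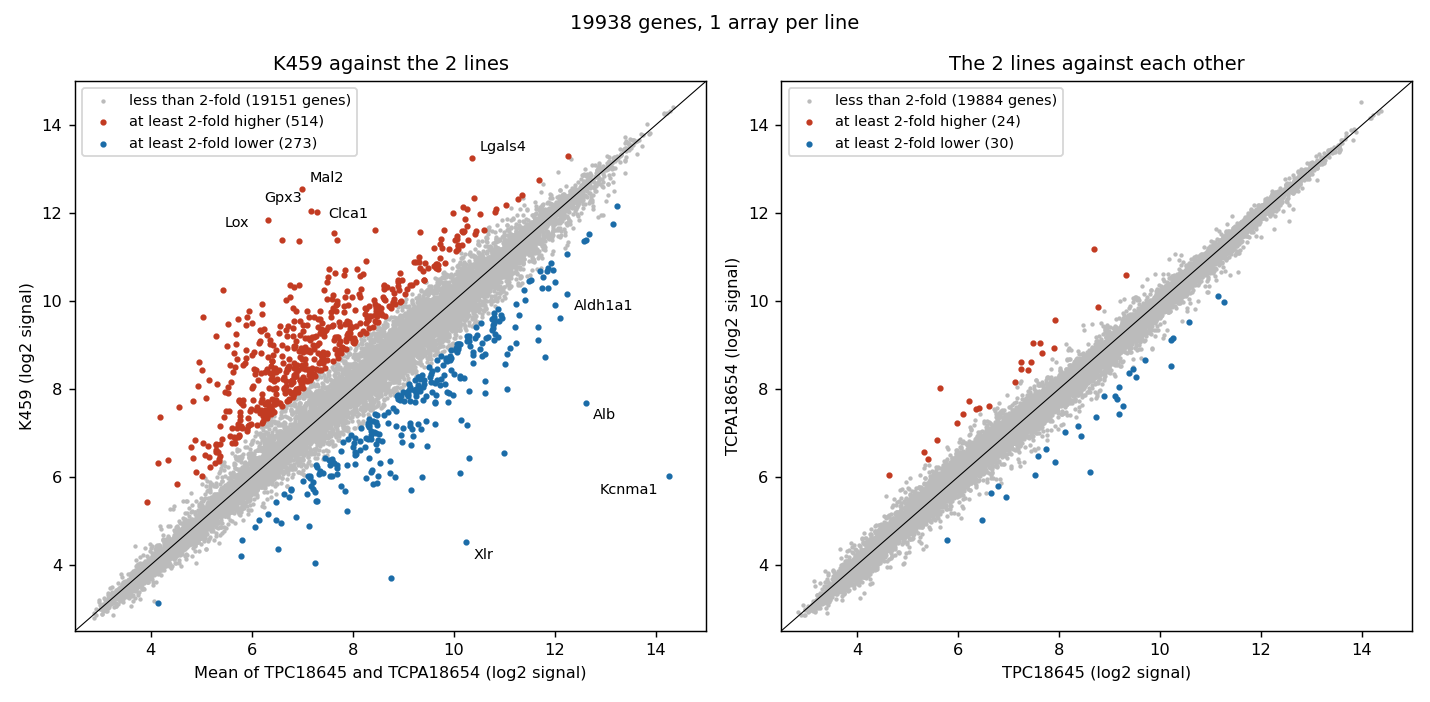
Log2 signal of K459 against the mean of TPC18645 and TCPA18654 (left) and of TCPA18654 against TPC18645 (right); each point is 1 of 19938 genes, red and blue points differ at least 2-fold, and the line marks equal signal. On the left 514 genes lie above and 273 below the 2-fold limit, and on the right 24 and 30 do.

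The largest difference on the array was in Kcnma1, which encodes the pore-forming subunit of the large-conductance calcium-activated potassium channel. Its log2 signal was 13.99 in TPC18645 and 14.52 in TCPA18654, among the brightest signals of these lines, and 6.01 in K459, below the dim threshold. The difference of -8.24 corresponds to a size of 303-fold, and the pair differed by 0.53. TPC20223 also had a dim signal of 5.91. Of the 4 nearest measured genes on either side of Kcnma1 on chromosome 14, in the order of the RefSeq gene table of GRCm38.p6, Lrmda was also lower, with 8.51, 8.44 and 5.87, whereas the adjacent Dlg5 had 9.87, 9.62 and 10.03. These neighbours were chosen after the values were seen.

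Of the 15 lowest genes, Kcnma1 included, 10 were dim in K459 and 0 were dim in the pair, and they encode proteins of varied function. Xlr, a lymphocyte-regulated gene of the X chromosome, had 10.24 in both lines of the pair and 4.51 in K459, and 3830403N18Rik, also X-linked, had 8.83, 8.68 and 3.71. Renbp, the renin-binding protein gene on the X chromosome, had 10.20, 10.03 and 6.08. In all 3 of these genes TPC20223 lay with the pair, between 8.19 and 10.26. The steroid-metabolising reductase gene Akr1c14 differed by -4.43, the lubricin gene Prg4 by -3.89, the prolactin-family gene Prl2c5 by -3.43 and the NMDA receptor subunit gene Grin2a by -3.38. Among the 15 lowest genes were further Gtsf2 (-3.22), the small heat shock protein gene Hspb8 (-3.08), Arhgdib (-3.08), the uroplakin gene Upk1b (-3.07) and the gastric protease gene Cym (-2.86). The gap between the pair was at most 0.78 in size in these 15 genes, which all differed by at least 2.85.

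Among the 15 highest genes, K459 had log2 signals of 9.20 to 12.55 and both lines of the pair were dim in 9. Mal2, a gene of apical membrane transport in epithelial cells, had 6.42 in TPC18645, 7.57 in TCPA18654 and 12.55 in K459, a difference of 5.55. Lox, which encodes the collagen and elastin cross-linking enzyme lysyl oxidase, had 6.20, 6.43 and 11.85. TPC20223 had 6.93 for Mal2 but 12.87 for Lox. The secreted glutathione peroxidase gene Gpx3 had 7.03, 7.32 and 12.05, and the sulfotransferase gene Sult1d1 had 4.96, 5.89 and 10.24. Sgce, the imprinted gene of ε-sarcoglycan, had 5.98, 7.22 and 11.38, and Clca1, a secreted product of mucous cells, had 7.01, 7.59 and 12.02. The others of the 15 were Lrrn1 (4.61), Pamr1 (4.43), Tc2n (3.95), Tmem47 (3.91), Tm4sf5 (3.90), Tmem236 (3.84), Gkn3 (3.82), Stmn2 (3.72) and Ndn (3.71).

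The line that was left out shows 2 patterns among these 15 genes. For Lox, Gpx3, Sgce, Lrrn1, Pamr1, Tmem47, Stmn2 and Ndn, TPC20223 had 9.19 to 12.87 and lay near K459 rather than near the pair. For Mal2, Sult1d1, Clca1, Tc2n, Tm4sf5, Tmem236 and Gkn3 it had 4.71 to 6.93 and lay near the pair. TPC20223 had no part in the difference that ranked these genes, but it entered the mean signal by which a gene's cluster was taken. The sorting of genes by the level of TPC20223 was made after the values were seen.

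**Figure D2:**
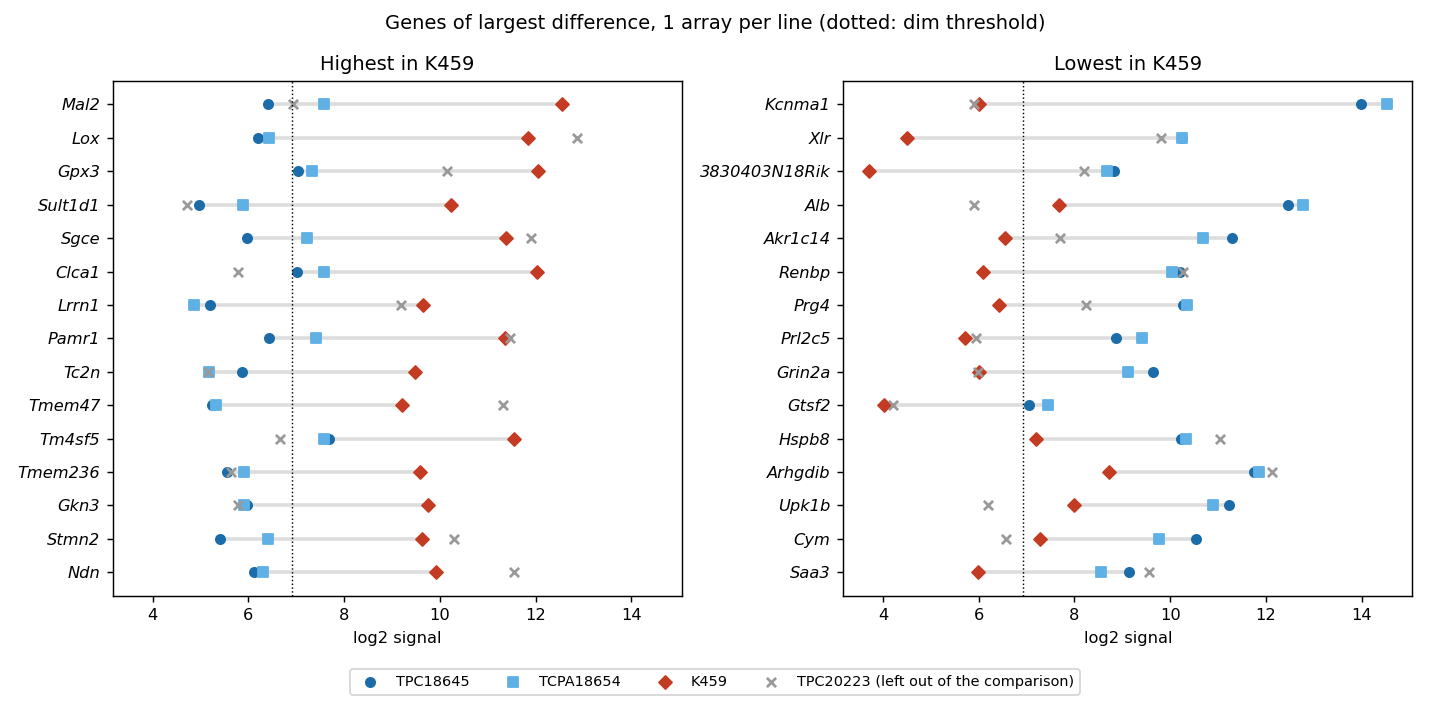
Log2 signals of the 15 genes with the highest and the 15 with the lowest difference of K459, with 1 symbol per line and a dotted line at the dim threshold of 6.92; grey crosses show TPC20223, which took no part in the comparison. K459 lies far to 1 side of the symbols of TPC18645 and TCPA18654 in every row, from 3.71 to 5.55 above their mean on the left and 2.86 to 8.24 below it on the right.

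Epithelial genes had the highest median difference of the 42 gene lists examined when dim genes were kept; with dim genes left out, the intestine-type list described further on had 1.91 and the epithelial list 1.09. Of 24 measured ductal and epithelial markers, 11 were at least 2-fold higher, against 2.58% of all genes, and 0 were lower. The list's median difference was 0.88, against -0.02 over all genes and 0.13 for the gap between the pair. Prom1, a gene of apical membrane protrusions, had 6.40 in TPC18645, 7.03 in TCPA18654 and 9.44 in K459. The epithelial adhesion gene Epcam had 6.82, 7.37 and 9.77, and the epithelial ETS factor gene Ehf had 7.92, 8.23 and 10.73. Claudin 4 (Cldn4) had 7.12, 7.25 and 9.19. In each of these 4 genes K459 was above both lines of the pair, which lay within 0.63 of each other. Krt19 itself, with 11.74, 11.79 and 12.65, differed by 0.88 and did not reach 2-fold. The list's summed linear signal was 36794 in TPC18645, 40003 in TCPA18654 and 58467 in K459.

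Tight junction and adhesion genes had more members past 2-fold than their median shows. Of 32 measured cell junction genes, 8 were higher and 0 lower, against 2.58% and 1.37% of all genes. The median difference was 0.17 and the median gap 0.06. In 11 of the 32 the difference was below 0. Ocln, the occludin gene, had 6.85, 6.91 and 9.77, Cldn2 had 6.02, 6.13 and 8.44, and Cldn6 had 9.65, 10.33 and 12.00. Cldn1 was higher by 1.75, but here TPC18645 with 7.93 and TCPA18654 with 6.34 differed by nearly as much.

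Some genes of the transcription factors that shape the pancreas and neighbouring gut epithelium had higher signals. Of 30 measured lineage factors, 8 (26.7%) were higher and 1 (3.33%) was lower, against 2.58% and 1.37% of all genes, with a median of 0.19. Gata5, a factor of gut endoderm, had 7.38, 7.62 and 10.55. Pdx1, which is required for pancreas formation, had 7.76, 7.46 and 9.85, and the forkhead factor Foxa1 had 8.72, 8.62 and 10.32. Onecut3 was higher by 1.49. The member that was lower, Klf4, had 10.55, 10.30 and 9.15. Acinar enzyme genes had 0 of 22 members past 2-fold and a median of -0.27, but the pair itself differed more, by -0.39, with K459 near TCPA18654 and 14 of the genes dim. Endocrine markers had 0 of 13 past 2-fold and a median of 0.00.

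The intestine-type genes are a list written after the first values were seen, from genes of enterocytes and goblet cells, so that its count describes K459 and supports nothing. Of 44 measured genes, 16 (36.4%) were at least 2-fold higher in K459 and 2 (4.55%) lower, against 2.58% and 1.37% of all genes. The median was 0.40. Besides Mal2, Sult1d1 and Clca1, Tm4sf5 had 7.68, 7.59 and 11.54 in TPC18645, TCPA18654 and K459. Lgals4, the gene of a lectin of gut epithelium, had 10.19, 10.53 and 13.25, and Cdh17, which encodes the liver-intestine cadherin, had 7.70, 7.34 and 10.72. Vil1, the villin gene of the brush border, had 7.40, 7.58 and 10.05, and the intestinal homeobox gene Cdx2 had 7.17, 7.79 and 8.66. In these last 4 genes the pair differed by at most 0.62, and TPC20223 had 6.13 to 6.63. The aminopeptidase gene Anpep, in contrast, was lower by 1.24 in K459, and 18 of the 44 genes were dim. Lgals4, Cdh17, Vil1 and Cdx2 were named after their values were seen.

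Gastric-type secretory genes split. Of 33 measured mucin, trefoil and gastric genes, 5 (15.2%) were higher and 3 (9.09%) lower, against 2.58% and 1.37% of all genes. The median was 0.16, with 0.26 against TPC18645 alone and 0.11 against TCPA18654 alone. Gkn3, a gastrokine gene of stomach mucous cells, had 5.97, 5.90 and 9.76, Dmbt1 had 6.58, 6.95 and 10.36, and Agr2, which encodes a disulfide isomerase needed for mucin folding, had 6.35, 6.12 and 9.36. The gel-forming mucin genes Muc5b (9.03, 8.95 and 7.10) and Muc5ac (10.08, 9.22 and 7.87) were lower, whereas Muc2 (0.01) and Muc6 (0.17), of the same class, were dim in all 3 lines. Lcn2, the lipocalin gene, differed by -1.14. The trefoil gene Tff1 was higher by 1.27.

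Genes of blood plasma proteins, which liver cells make, were likewise listed after the values were seen. Of 33 measured genes, 8 (24.2%) were lower and 3 (9.09%) higher in K459, against 1.37% and 2.58% of all genes, with a median of -0.12. Alb, the albumin gene, had 12.47 and 12.77 in the pair and 7.68 in K459. Apob, the apolipoprotein B gene, had 11.65, 11.67 and 9.11, Ahsg (fetuin A) had 8.69, 8.31 and 6.01, and hemopexin (Hpx) had 9.27, 9.10 and 6.94. Transthyretin (Ttr) differed in the other direction, with 6.56, 7.13 and 10.31, as did Rbp4 (1.47) and Apoe (1.34). Of 26 complement genes, also listed after the values were seen, 5 (19.2%) were lower and 1 (3.85%) was higher, against the same shares of all genes. C2 had 8.82, 7.97 and 5.84, Cd59a had 10.48, 10.12 and 7.95, and C1s1 had 10.08, 9.88 and 7.86, whereas complement factor I (Cfi) had 6.36, 6.54 and 8.48. With dim genes left out, these lists had larger medians, -0.52 for plasma proteins, -0.62 for complement and 1.91 for the intestine-type genes.

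**Figure D3:**
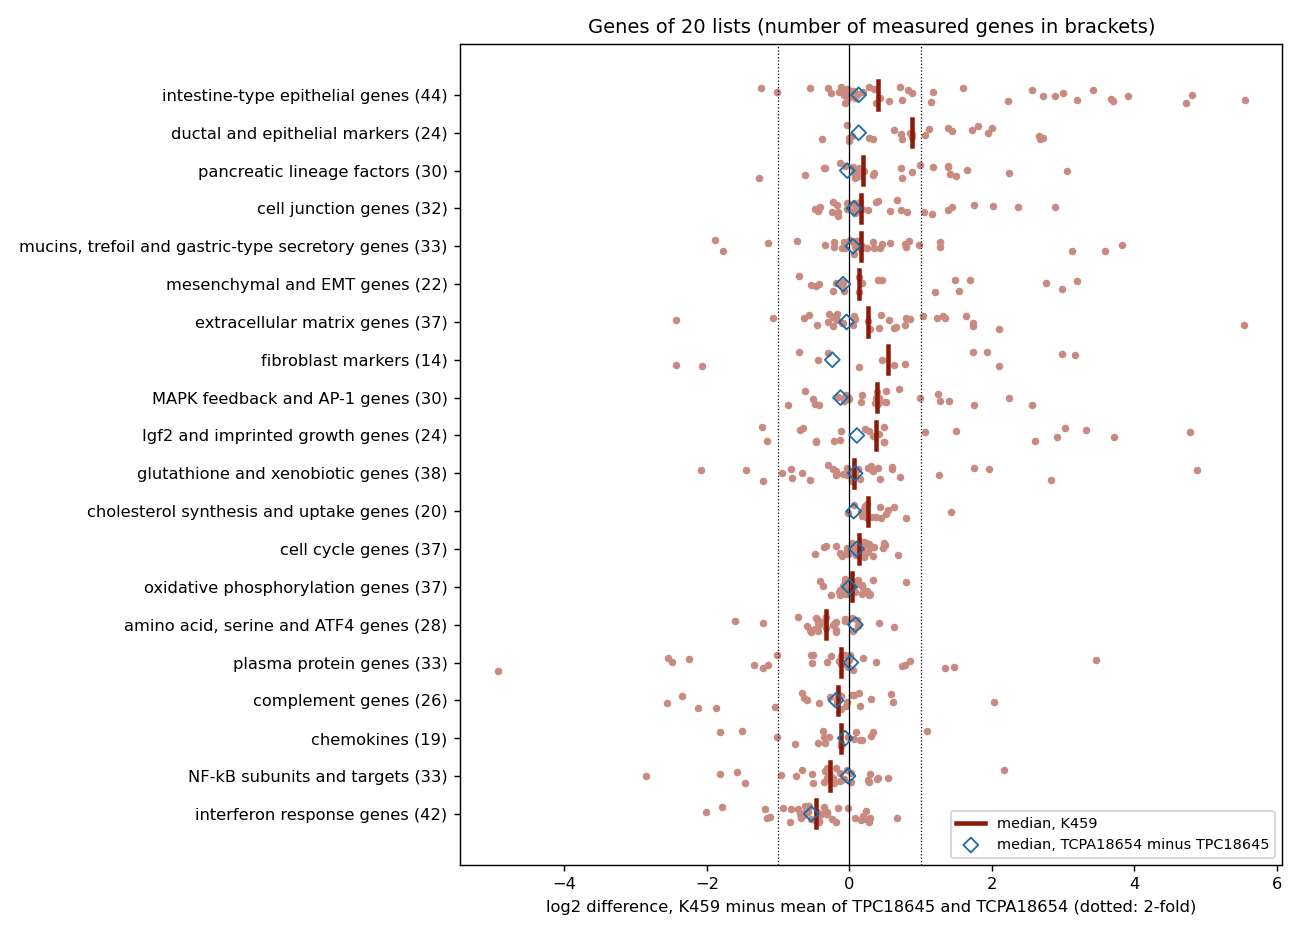
Log2 difference of K459 from the mean of TPC18645 and TCPA18654 for the measured genes of 20 lists; points are genes with vertical jitter, dark red bars are list medians, blue diamonds are the medians of TCPA18654 minus TPC18645, and dotted lines mark 2-fold. The ductal list has the highest median shown, 0.88, and the interferon list the lowest, -0.47, where the diamond lies at -0.53.

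Some mesenchymal and matrix genes also had higher signals in K459, beside the epithelial genes. Of 22 measured mesenchymal genes, 7 (31.8%) were higher and 0 lower, against 2.58% and 1.37% of all genes, with a median of 0.13. Mmp2, a gelatinase gene, had 9.26 in TPC18645, 7.60 in TCPA18654 and 11.62 in K459, so that its gap of 1.66 was large as well. Periostin (Postn) had 5.99, 5.15 and 8.55, tenascin C (Tnc) had 5.53, 5.72 and 8.38, and Tagln, a smooth muscle actin-binding gene, had 6.85, 7.14 and 8.69. In TPC20223 these 4 genes reached 11.71 to 13.02. The repressors of E-cadherin Zeb1 (10.35, 10.03 and 10.09) and Zeb2 (8.99, 8.77 and 8.79) lay between the lines of the pair in K459, and Acta2 was lower by 0.70.

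Of 37 extracellular matrix genes, 9 (24.3%) were higher and 2 (5.41%) lower, against 2.58% and 1.37% of all genes, with a median of 0.27. After Lox, the higher members with the largest differences were the collagen genes Col1a2 (7.64, 7.69 and 9.76) and Col1a1 (8.53, 8.72 and 10.36) and the laminin gene Lamb1 (8.54, 8.68 and 10.35). Decorin (Dcn), a small proteoglycan gene and fibroblast marker, was lower, with 11.03, 10.99 and 8.57, and thrombospondin 1 (Thbs1) differed by -1.07. Among 34 integrin and protease genes, 6 (17.6%) were higher and 2 (5.88%) lower, against the same shares of all genes. Those past 2-fold included Itga6 (1.81), Mmp14 (1.67), Itga2 (1.46) and St14 (1.25) on the higher side, and Itgb6 (-1.53) and Timp3 (-1.23) on the lower.

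Fibroblast markers were examined because a culture from a tumour can hold stromal cells. Of 14 measured genes, 5 (35.7%) were higher and 2 (14.3%) lower, against 2.58% and 1.37% of all genes. The median was 0.54, and 4 of these 7 genes are also in the matrix or mesenchymal lists. Dpt had 5.77, 5.51 and 8.81 and Thy1 had 6.99, 6.87 and 8.86, but Pdpn had 9.46, 9.11 and 7.21, and Pdgfra differed by -0.44. The summed linear signal of the list was 12085 in TPC18645, 9362 in TCPA18654 and 9660 in K459. Of the other cell types, 17 of 19 leukocyte markers and 9 of 13 endothelial markers were dim in all 3 lines. The leukocyte list had 1 member past 2-fold, Lyz2 (5.46, 5.83 and 6.91), the endothelial list had 1, the VEGF receptor gene Flt1 (6.39, 6.96 and 8.17), and the Schwann cell and neuron list had 2 higher, Stmn2 and Erbb3, and 1 lower, Tubb3 (-1.36). The leukocyte sum was 2251, 2241 and 2751 and the endothelial sum 1160, 1281 and 1323. The part of other cells in the matrix differences was not tested, and in bulk RNA more cells of a type and more RNA per cell cannot be told apart.

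Imprinted genes included some of the largest differences. Imprinted genes are expressed from the maternal or paternal copy alone, and many act on growth. Of 24 measured genes of this list, 8 (33.3%) were higher and 2 (8.33%) lower, against 2.58% and 1.37% of all genes, with a median of 0.37. The list also holds Igf2 pathway genes, so its counts include Igfbp5, Igf1 and Igf1r beside imprinted genes. The pair itself differed here: 5 of the 24 were at least 2-fold higher and 1 lower in TCPA18654 than in TPC18645, against 0.12% and 0.15% of all genes. Sgce and Peg10, a pair of paternally expressed neighbours on chromosome 6, had 5.98, 7.22 and 11.38, and 6.09, 7.44 and 10.08, and the pair of lines differed in each by over 1 on the log2 scale. The neighbours of Sgce in the gene table went the same way up to a limit: Casd1 had 5.43, 5.58 and 8.97 and Col1a2, the next measured gene, was higher by 2.09. Beyond them, Bet1 differed by -0.39 on one side, and on the other Ppp1r9a by 0.95 and Pon1 by -0.21. Casd1, Ppp1r9a, Bet1 and Pon1 were chosen after their values were seen. TPC20223 had 9.50 to 12.75 in Casd1, Sgce, Peg10 and Col1a2.

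Ndn, a paternally expressed gene of chromosome 7, had 6.12, 6.30 and 9.92, and Igfbp5 had 6.34, 7.29 and 9.84. On the lower side were Igf1 (8.97, 8.44 and 7.48) and its receptor gene Igf1r (11.40, 11.39 and 10.24). Igf2, which had 1 of the 5 largest gaps between the pair, had 9.18, 7.44 and 7.84 and did not set K459 apart. Of the 5 genes with the largest gaps, Tm4sf4 (8.70, 11.17 and 9.82) also lay between the lines, whereas Ogn (8.61, 6.12 and 9.31) and Tspan6 (5.64, 8.03 and 9.55) were higher and Pcp4 (10.21, 8.51 and 7.09) lower in K459, each with a gap of 1.70 to 2.49 in size.

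Part of the NF-κB target genes, and most of them by a small margin, had lower signals in K459 than in either line of the pair. NF-κB dimers, most often of p65 and p50, bind a short consensus in promoters and enhancers of genes for cytokines, chemokines and their own inhibitors. Of 33 measured subunits and targets, 4 (12.1%) were at least 2-fold lower and 1 (3.03%) higher, against 1.37% and 2.58% of all genes. In 24 of the 33 the difference was below 0. The median was -0.27, with -0.02 for the gap between the pair, -0.29 against TPC18645 alone and -0.25 against TCPA18654 alone. The acute-phase gene Saa3 had 9.14 in TPC18645, 8.55 in TCPA18654 and 5.99 in K459. Tnfaip3, which encodes the feedback inhibitor A20, had 10.65, 10.57 and 8.80, the prostaglandin synthase gene Ptgs2 had 11.75, 11.99 and 10.29, and the inhibitor gene Nfkbie had 8.61, 8.32 and 7.0. Nfkbia, the IκBα gene, had 10.44, 10.51 and 9.52, just short of 2-fold. Il6 went the other way, with 4.35, 3.92 and 6.31, at dim signal in all 3 lines. TCPA18654, which carries the same p65fl/fl label as K459, lay within 0.59 of TPC18645 in each of these genes. Whether the p65 genotype plays a part in these differences was not tested.

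Of 19 measured chemokine genes, 3 (15.8%) were lower, against 1.37% of all genes, and 1 (5.26%) was higher, against 2.58%, with a median of -0.12. Ccl9 had 9.95, 10.28 and 8.30, the neutrophil attractant Cxcl1 had 10.75, 10.62 and 9.18, and the interferon-inducible Cxcl10 had 9.75, 9.27 and 8.50. Ccl20 had 7.93, 9.57 and 9.84, so that K459 was close to TCPA18654 and the difference of 1.09 was smaller than the pair's own gap of 1.64. Ccl2, the chemokine at the centre of the study, which places its main source in neurons, had 10.84, 11.07 and 10.83 and differed by -0.12.

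Of the genes of these lists that passed 2-fold, 7 hold a match to the NF-κB consensus. These genes were grouped by list and by the difference of K459, not by sequence. Their promoters are shown with the matches in capitals. Each runs 5′ to 3′ from 250 bases before to 50 bases after the gene's start in RefSeq GRCm38.p6: Tnfaip3 at chr10:19015361-19015660 on the minus strand, Nfkbie at chr17:45555450-45555749 on the plus strand, Cxcl1 at chr5:90890995-90891294 on the plus strand, Cxcl10 at chr5:92348840-92349139 on the minus strand, Ccl9 at chr11:83578587-83578886 on the minus strand, Il6 at chr5:30012864-30013163 on the plus strand and Ccl20 at chr1:83116516-83116815 on the plus strand. Tnfaip3 has another promoter in the table, with 0 matches, which is not shown. In Tnfaip3, Nfkbie, Cxcl1, Cxcl10 and Ccl9 the signal was lower in K459, and in Il6 and Ccl20 it was higher.
Tnfaip3: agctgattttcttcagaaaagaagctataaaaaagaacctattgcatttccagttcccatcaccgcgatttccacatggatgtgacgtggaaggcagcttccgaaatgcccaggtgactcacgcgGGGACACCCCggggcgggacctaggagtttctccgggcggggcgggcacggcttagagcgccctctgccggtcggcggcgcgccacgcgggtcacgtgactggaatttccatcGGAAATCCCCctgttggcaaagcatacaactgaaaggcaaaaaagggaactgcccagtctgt
Nfkbie: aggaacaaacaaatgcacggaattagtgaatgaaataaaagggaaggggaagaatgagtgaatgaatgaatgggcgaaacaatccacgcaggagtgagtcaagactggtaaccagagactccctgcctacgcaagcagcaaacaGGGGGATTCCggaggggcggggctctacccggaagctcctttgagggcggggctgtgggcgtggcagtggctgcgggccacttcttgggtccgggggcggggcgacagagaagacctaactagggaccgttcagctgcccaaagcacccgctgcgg
Cxcl1: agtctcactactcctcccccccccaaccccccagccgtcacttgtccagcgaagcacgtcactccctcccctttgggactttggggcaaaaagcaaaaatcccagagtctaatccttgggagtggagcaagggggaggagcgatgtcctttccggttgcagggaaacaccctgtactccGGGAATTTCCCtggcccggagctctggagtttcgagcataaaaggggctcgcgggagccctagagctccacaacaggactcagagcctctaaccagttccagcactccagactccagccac
Cxcl10: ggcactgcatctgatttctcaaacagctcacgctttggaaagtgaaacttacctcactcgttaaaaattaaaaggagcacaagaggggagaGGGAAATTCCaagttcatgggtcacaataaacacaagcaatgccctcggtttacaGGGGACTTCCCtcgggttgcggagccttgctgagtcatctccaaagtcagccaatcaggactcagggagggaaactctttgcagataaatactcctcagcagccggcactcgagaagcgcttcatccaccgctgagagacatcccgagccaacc
Ccl9: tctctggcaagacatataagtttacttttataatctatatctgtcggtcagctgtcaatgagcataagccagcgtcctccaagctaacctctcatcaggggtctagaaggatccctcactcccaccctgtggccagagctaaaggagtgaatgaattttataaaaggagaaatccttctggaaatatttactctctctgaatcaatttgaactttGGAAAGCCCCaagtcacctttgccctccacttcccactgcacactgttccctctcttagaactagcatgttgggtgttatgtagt
Il6: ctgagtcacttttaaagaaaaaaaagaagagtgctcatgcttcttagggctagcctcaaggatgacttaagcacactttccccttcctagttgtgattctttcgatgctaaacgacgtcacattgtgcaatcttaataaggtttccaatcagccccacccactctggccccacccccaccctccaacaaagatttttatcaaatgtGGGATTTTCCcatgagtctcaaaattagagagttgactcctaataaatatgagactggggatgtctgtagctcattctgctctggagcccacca
Ccl20: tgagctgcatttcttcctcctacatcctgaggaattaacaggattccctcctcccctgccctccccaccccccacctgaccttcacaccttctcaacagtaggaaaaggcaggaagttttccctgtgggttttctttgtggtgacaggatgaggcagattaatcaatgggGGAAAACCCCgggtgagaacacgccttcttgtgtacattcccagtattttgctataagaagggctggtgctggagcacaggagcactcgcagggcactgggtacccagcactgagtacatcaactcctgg

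The consensus was searched on both strands, with matches allowed to overlap, as GGG, a purine, 2 bases of any kind, 2 pyrimidines and CC. It was present in 8.46% of 32851 promoters in the table. A gene with several promoters was counted where any of them held a match, which favours such genes over the share per promoter. In the NF-κB list it was present in 2 of 4 lower genes (not in Saa3 or Ptgs2), in the 1 higher gene and in 8 of 23 others with a promoter in the table. In the chemokine list it was present in 3 of 3 lower genes, in the 1 higher gene and in 2 of 9 others. The motif thus occurred in genes that were lower, higher and within 2-fold in K459. A match describes letters in this window and was not tested for binding.

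Interferon response genes had lower signals in K459 than in TPC18645, and TCPA18654 lay between them for many. Of 42 measured genes, 5 (11.9%) were at least 2-fold lower and 0 higher, against 1.37% and 2.58% of all genes. The median was -0.47, but the gap within the pair had a median of -0.53. The list's median was -0.76 against TPC18645 and -0.22 against TCPA18654. Oasl1, an antiviral gene of the oligoadenylate synthetase family, stood apart from both lines, with 9.95, 9.88 and 7.90. The antiviral GTPase gene Mx1 had 7.04, 6.71 and 5.09, and Mx2 had 7.23, 6.25 and 5.55. The deconjugating protease gene Usp18 had 10.57, 9.51 and 8.89, and the regulator Irf7 had 9.46, 8.46 and 7.84. TCPA18654 lay between the other lines in all 5, nearer to TPC18645 in Oasl1 and Mx1 and nearer to K459 in Mx2, Usp18 and Irf7. The interferon-stimulated response element, searched on both strands as GAAA, 2 bases of any kind and GAAA again, was in 3.44% of promoters, in 0 of 2 lower genes with a promoter in the table (Oasl1 and Irf7) and in 13 of 28 other list members. Antigen presentation genes had 0 of 21 past 2-fold and a median of -0.12.

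**Figure D4:**
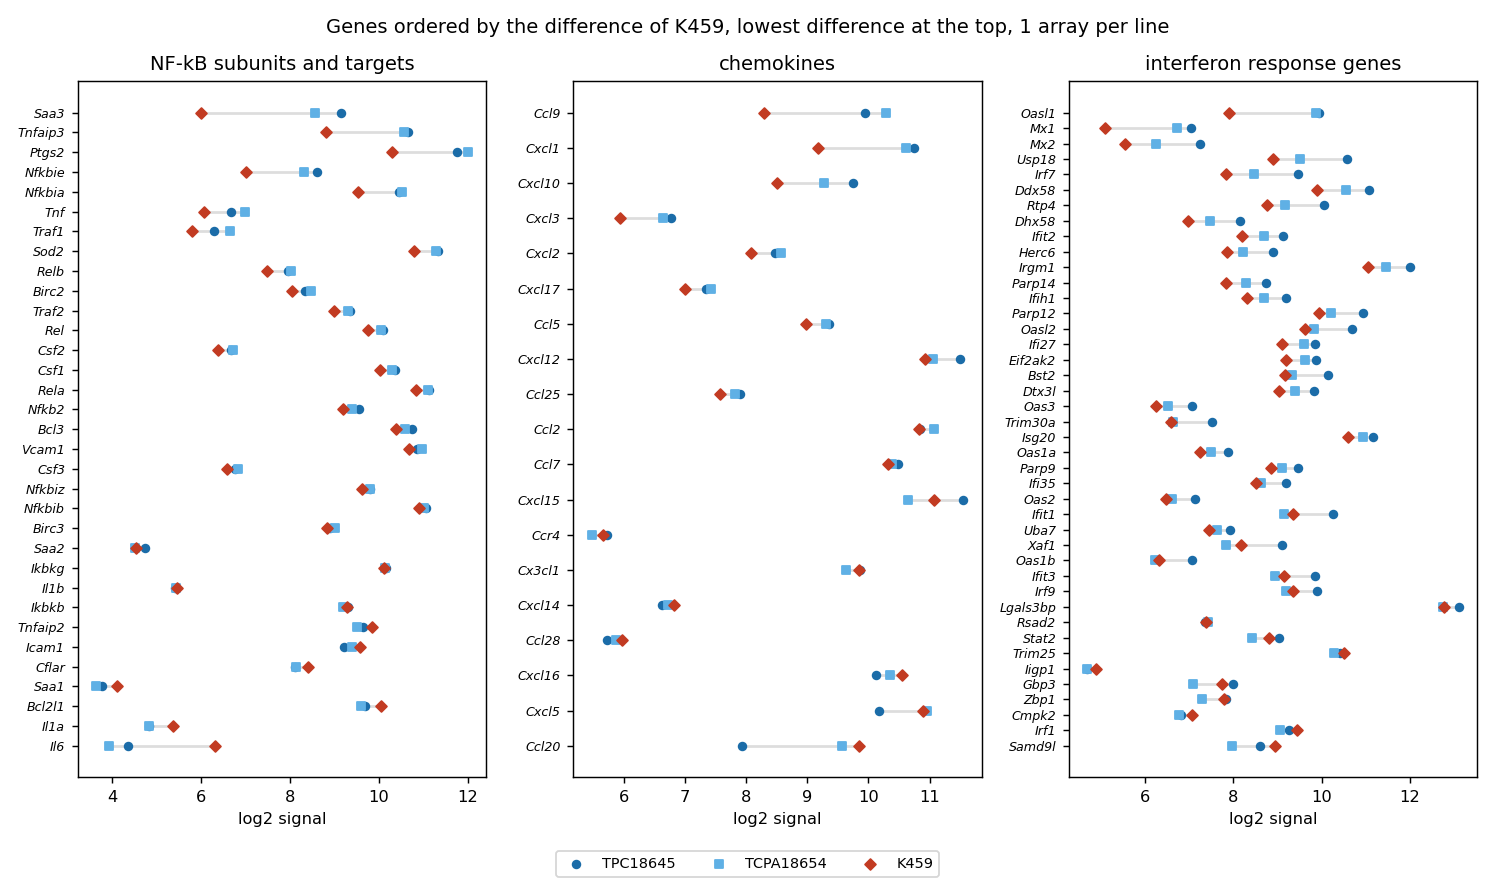
Log2 signals of TPC18645, TCPA18654 and K459 for the measured NF-κB (33), chemokine (19) and interferon (42) genes, ordered by the difference of K459 with the lowest at the top; grey bars span the 3 lines, with 1 array each. In the NF-κB panel 4 genes are at least 2-fold lower in K459 with the pair side by side, while in the interferon panel TCPA18654 often lies near K459.

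Several feedback genes of the ERK pathway had higher signals in K459. ERK activity induces the ETS factors Etv1, Etv4 and Etv5 and the Sprouty inhibitors, which are used as a readout of the pathway. Of 30 measured MAPK feedback and AP-1 genes, 6 were higher and 0 lower, against 2.58% and 1.37% of all genes. The median was 0.38 and the median gap -0.12. The difference was above 0 in 19 of the 30 and below 0 in 11. Other feedback and early response genes of the list stayed within 2-fold, on both sides of 0. Dusp6 differed by 0.69 and Egr1 by 0.36, whereas Dusp1 differed by -0.485 and Ier3 by -0.505. Spry4 had 7.77 in TPC18645, 7.62 in TCPA18654 and 9.93 in K459, Etv5 had 8.21, 7.89 and 9.80, and Etv4 had 7.41, 7.32 and 8.77. Etv1 had 7.31, 6.33 and 9.38, with a gap of -0.98 within the pair. Of 16 EGFR receptors and ligands, 2 (12.5%) were higher and 2 (12.5%) lower. The higher ones were Erbb3 (8.04, 7.84 and 9.44) and the inhibitor gene Errfi1 (11.13, 11.41 and 12.31). The lower ones were the ligand genes Ereg (9.22, 9.45 and 7.96) and Nrg1 (10.11, 10.01 and 9.01). Egfr, the receptor of TGF-α, differed by -0.69.

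The study reports several genes of nerve growth as higher in TPAC than in KPC cancer cells, and describes a CCL2 pathway. No KPC line is in the present comparison, so these values do not bear on that one. In the study CCL2 was highest in nerves and neurons, and paxillin was followed by its phosphorylation, neither of which was measured here. Fos had 9.46, 9.34 and 10.67 in TPC18645, TCPA18654 and K459, a difference of 1.27, and the neuropeptide gene Npy had 9.90, 9.68 and 8.98. Fgf9 (6.56, 6.65 and 6.64), Nrg4 (6.05, 5.63 and 6.07) and the chemokine receptor gene Ccr4 (5.73, 5.48 and 5.67) were dim in all 3 lines. The paxillin gene Pxn had 10.81, 10.83 and 10.60. Of 61 measured genes that guide nerves or attract Schwann cells, 5 (8.20%) were higher and 4 (6.56%) lower. The shares of all genes were 2.58% and 1.37%, and the list's median was -0.01. Robo1, a guidance receptor gene, had 6.52, 6.55 and 9.28, its ligand gene Slit2 had 6.81, 7.67 and 9.17, and Sema5a had 6.84, 7.44 and 9.63. Sema3c had 11.95, 12.06 and 10.42, and the netrin gene Ntn4 had 9.44, 9.15 and 8.02. The semaphorin receptor genes Plxnb1 (-1.19) and Nrp1 (-1.10) were lower too.

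Among developmental pathways, 3 of 44 Wnt genes (6.82%) were higher, against 2.58% of all genes, and 1 (2.27%) was lower, against 1.37%. The counts for Wnt and Notch, and for the EGFR, p53, sphingolipid, glycolysis and amino acid lists, are of few genes. They are not read as a difference from all genes. The Wnt antagonist Sfrp1 had 6.01, 5.76 and 9.45, Lgr5, a gene of Wnt-responsive stem cells, had 7.23, 8.13 and 9.99, and Fzd5 was higher by 1.47, whereas Wnt7a differed by -1.28. Of 44 TGF-β and BMP genes, 4 (9.09%) were higher and 2 (4.55%) lower, against 2.58% and 1.37% of all genes. Ltbp2 at 2.54 and Tgfbi at 2.40 were among the higher, and Bmp6 at -1.22 and Tgfb2 at -1.12 were the lower. Notch1 was the only one of 23 Notch genes (4.35%) past 2-fold, with 8.52, 8.41 and 9.84. Of 20 p53 target and INK4 genes, 2 (10.0%) were lower, the death receptor gene Fas (9.58, 9.34 and 6.71) and Trp53inp1 (-1.04).

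Among the metabolic lists, the glutathione and xenobiotic genes had the most members past 2-fold. Of 38 measured, 5 (13.2%) were higher and 3 (7.89%) lower, against 2.58% and 1.37% of all genes, with a median of 0.06. After Gpx3 these were the transporter gene Abcc3 (7.28, 7.59 and 10.26) and Gsta3 (6.93, 7.39 and 9.12) on the higher side, and the retinal dehydrogenase gene Aldh1a1 (12.44, 12.04 and 10.16) on the lower. Of 33 sphingolipid genes, 2 (6.06%) were higher, Sgpp2 (7.70, 7.94 and 10.59) and Degs2 (7.18, 7.45 and 9.59). Cholesterol synthesis and uptake genes differed by little but mostly to the same side: 19 of 20 lay above 0, with a median of 0.26, and Tm7sf2 (8.07, 7.91 and 9.41) was the only member past 2-fold. Amino acid, serine and ATF4 genes had 22 of 28 members below 0, a median of -0.33 and 2 (7.14%) past 2-fold, Aldh1l2 (-1.60) and Slc1a5 (-1.21). Of 21 glycolysis genes, 2 (9.52%) were higher, Aldoc (1.21) and Slc16a3 (1.14), and 1 (4.76%) was lower, Ldhb (-1.19). Elovl6 (8.90, 9.76 and 11.56) was the only fatty acid synthesis gene of 18 past 2-fold. None of the 37 cell cycle, 37 oxidative phosphorylation, 37 HOX or 25 fructose, mannose and pentose phosphate genes reached 2-fold, with medians of 0.14, 0.04, -0.07 and 0.13, and 30 of the HOX genes were dim.

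Of 7 measured Y-linked genes, 3 had higher signals in K459 than in the pair. Eif2s3y, a translation factor gene of the Y chromosome, had 4.17, 4.21 and 7.36, Uty had 4.43, 4.67 and 7.59, and Kdm5d had 5.22, 4.93 and 6.49. TPC20223 had 4.21, 4.37 and 5.08 in these genes. Kdm5d was dim in all 3 lines. So were the other Y-linked genes, Zfy1 (-0.26), Usp9y (-0.135), Uba1y (0.05) and Zfy2 (0.03), which differed little. Xist, the RNA of the inactive X chromosome, had 5.76, 5.68 and 5.42, against 11.23 in TPC20223. K459 was thus the only line of the 4 with raised signals of Eif2s3y and Uty, and TPC20223 the only one with a bright Xist signal.

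Part of the difference followed the chromosomes. The genes that were not dim were put in the order of the gene table of GRCm38.p6, and the median difference was taken over windows of 25 neighbouring genes. Between TCPA18654 and TPC18645 the 12003 window medians ran from -0.19 to 0.17. In K459 they ran from -0.51 to 0.79, with 1139 above and 1245 below the pair's range. On chromosome 12, 385 of 403 windows lay above it, and 83.4% of 427 genes were higher in K459, with a median of 0.39, against 49.4% of all genes in windows. On chromosome 16, 320 of 379 windows lay below, where 15.1% of 403 genes were higher in K459 and the median was -0.32. Chromosomes 17 (319 of 594) and 5 (342 of 785) also had many windows below. On chromosomes 11 and 18 no window left the pair's range. DNA copy number was not measured, and neighbouring windows share genes and are not independent.

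Joining the windows beyond the pair's range gave 69 runs, 39 higher and 30 lower. Only the 5 with the most genes are described, a choice made after the values were seen. The longest spanned all 427 genes of chromosome 12, from Rab10os to Tmem196, and held Tc2n (5.87, 5.18 and 9.48), Agr2, the SOX factor gene Sox11 (6.40, 6.32 and 9.02) and Etv1 as its genes of largest difference. Of its genes, 33 were at least 2-fold higher and 1 lower. Nfkbia, which was lower in K459, also lies on this chromosome. The run on chromosome 16 from Zfp263 to Tbc1d23 covered 301 genes with a median of -0.32 and held Grin2a, Upk1b, Ahsg and the long non-coding RNA Dubr (8.78, 8.69 and 6.37). The run on chromosome 5 from Hsd17b11 to Tmem270 covered 255 genes with a median of -0.21, among them Hspb8, Oasl1, Tesc (-1.49) and the purinergic receptor gene P2rx7 (-1.17). On chromosome 17, 193 genes from Wiz to Prickle4, which include part of the major histocompatibility complex, had a median of -0.21, with C2, C4b, Cyp21a1 (-2.21) and Mucl3 (-2.16) lowest, and 167 genes from Nfya to Gm1976 had -0.24, with Plin4 (-1.13), Fez2 (-1.09), Plekhh2 (-1.06) and Lpin2 (-1.01).

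**Figure D5:**
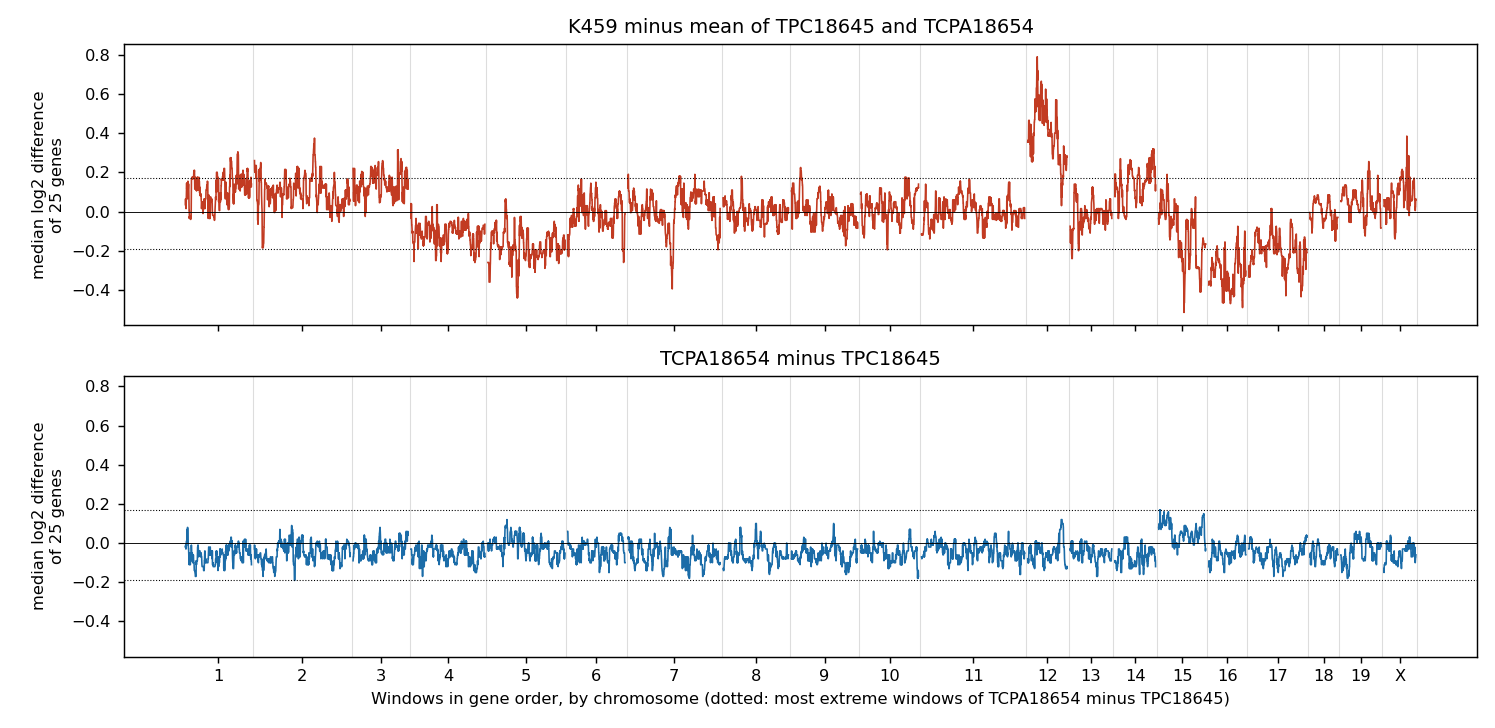
Median log2 difference over windows of 25 neighbouring genes, in gene order by chromosome, for K459 minus the mean of the pair (top) and TCPA18654 minus TPC18645 (bottom); dotted lines mark the lowest and highest window of the bottom panel, -0.19 and 0.17. In K459 the windows of chromosome 12 rise to 0.79 and those of chromosomes 16 and 17 lie mostly below the lower line or near it.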

How the data were processed

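RNA of 4 mouse pancreatic tumour cell lines was measured on Affymetrix Mouse Gene 1.0 ST arrays, 1 per line. Per the deposited table, signals are on the log2 scale after RMA by the authors (Affymetrix Expression Console 1.4 in the submitters' processing notes); RMA gives arrays a common distribution and so hides differences in total RNA. Array batches and the genome build behind the probe annotation are not given in the sources used here. Precision is limited by there being 1 array per line.

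Of 28941 transcript clusters, 21789 had 1 gene symbol, 1621 had several and 5531 had none in the platform annotation. Clusters with several symbols were not named. For a gene with several clusters, the brightest on average over the 4 arrays was taken, which gave 19938 genes, 18939 of them with 1 cluster. No filter was applied to counts of genes. Genes with no signal above 6.92 in the 3 arrays, the point under which 40% of genes lie by mean signal, are termed dim, and the windows along chromosomes left them out.

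The difference was K459 minus the mean of TPC18645 and TCPA18654. A log2 difference of 1 (2-fold) was the threshold. No p-value was computed: K459 is 1 array, and the comparison itself defined the genes described. The pair holds the closest lines of the series, and no source says that the lines came from separate animals. The gap within the pair may therefore understate the spread between independent lines. The line, its genes and the gene lists were chosen with earlier results of these data known, and 3 lists (plasma protein, complement and intestine-type genes) after the values of this comparison were seen. List symbols were matched to the files directly or, where they are no longer in use, through RefSeq synonyms; unmatched ones were not analysed here.

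The genes named were the 15 highest and 15 lowest, not dim and at least 2-fold beyond each line. From each list came up to 4 members past 2-fold in each direction, or its 2 largest. Rela, Tgfa, Krt19, some markers of cell types and some genes the study names for these cells were added. Of the latter, Cxcl15, Sptssb, Sfrp2, Ccdc80 and Aldh3a1 are not given here. The rest were 4 genes of each run and the 5 largest gaps within the pair. Other names were chosen after their values were seen.

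Alternatives were a common median per array, quantile normalization of the 3 arrays, cyclic loess (limma 3.58.1, R 4.3.3), the mean of a gene's clusters, dim genes left out, each line of the pair alone, 2-fold beyond each line and 4-fold. The steps were tested on simulated data. Python 3.11.15, pandas 2.3.3 and numpy 2.4.6 were used.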

Additional observations from a re-analysis of the deposited data

How the results depend on the processing

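The array number limits every value: K459 is 1 array, so its own spread was not measured, and differences that start or end at dim signal are compressed. No paired analysis was possible because K459 is 1 array and the lines of the pair carry no shared replicate numbers. Of 195 genes in the set chosen to be named, 0 that differed by 2-fold had the opposite sign in any of these alternatives. Of the 514 higher and 273 lower genes, 490 and 273 stayed past 2-fold with a common median per array, 492 and 272 with quantile normalization, 514 and 268 with cyclic loess, 509 and 266 with the mean of a gene's clusters, and 484 and 263 with dim genes left out. They were 470 and 231 against TCPA18654 alone and 475 and 266 against TPC18645 alone. At 4-fold, 146 genes were higher and 53 lower. The median over all genes was -0.025 as reported and ran from -0.065 with a common median to -0.002 with cyclic loess.

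With dim genes left out, list medians moved to 1.09 for ductal and epithelial markers, 0.39 for mucins, 0.73 for pancreatic lineage factors, -0.13 for nerve genes, 0.35 for Wnt genes, 0.31 for hypoxia targets, 0.15 for S100 genes, -0.52 for plasma proteins, -0.62 for complement and 1.91 for intestine-type genes. In 3 lists fewer than 5 genes remained. The X-inactivation and Y-linked list had -0.027 with the mean of clusters, and glycolysis had 0.18 with quantile normalization. With 1 line of the pair left out, medians ran from 0.125 to 0.25 for cell junction, 0.14 to 0.17 for matrix, -0.32 to -0.12 for chemokine, 0.25 to 0.325 for cholesterol, 0.025 to 0.105 for fatty acid synthesis, 0.22 to 0.30 for glycolysis, 0.365 to 0.715 for fibroblast and 0.36 to 0.58 for intestine-type genes. Ranges were also wide for mucins (0.11 to 0.26), integrins and proteases (0.095 to 0.16), interferon (-0.76 to -0.22) and acinar genes (-0.495 to -0.075). Medians near 0 changed sign with the line used for nerve genes (-0.04 to 0.04), EGFR genes (-0.025 to 0.085), TGF-β and BMP genes (-0.035 to 0.015), YAP targets (-0.06 to 0.09), glutathione genes (-0.005 to 0.105) and endocrine markers (-0.04 to 0.09). The cause of these changes was not tested. The runs along chromosomes were not repeated without dim genes, since their windows already leave them out.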

Other observations

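Among transcript clusters outside the comparison by gene, those without a symbol that passed 2-fold in K459 mostly went upward. Of the 5531 clusters without a gene symbol, 88 were at least 2-fold higher in K459 and 23 lower, and 11 had a gap of that size within the pair. These counts for K459 are smaller shares than the 2.58% and 1.37% of genes. Of the 1621 clusters with several symbols, 11 were higher and 23 lower, and 34 had such a gap. Clusters with several symbols thus did not set K459 apart from the pair's own gap.

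Where a gene past 2-fold had further clusters, these mostly went the same way. The 20 higher genes with more than 1 cluster had 39 other clusters, all 39 above 0 and 16 of them past 2-fold. The 18 lower genes had 24 others, of which 23 were below 0 and 12 past 2-fold. Of the 787 genes past 2-fold, 27 also had a gap of at least 2-fold within the pair.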
